A study of Mus musculus with 3 samples.

Results

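Glycogen is the glucose reserve of animal cells, and in the brain it is held mainly by astrocytes, the glia that supply neurons with metabolic fuel. The 9 genes described here code for the proteins that start, feed, extend and branch glycogen (Gyg, Ugp2, Gys1 and Gbe1), for the phosphorylases that take it apart (Pygb, Pygl and Pygm), and for proteins that control the store (Ppp1r3c and Epm2a). They were chosen by name from what is known of the pathway, but with earlier results of these data known, so counts over them are descriptions. A probe set, the group of short oligonucleotides on the array that reports on a transcript, was assigned to a gene where the platform annotation gives it exactly 1 gene. All 9 genes were found this way, with 17 probe sets between them, among 18194 genes in all.

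The samples were 3 replicates of astrocytes made from mouse embryonic stem cells, labelled wild type, and no other group or contrast was part of the study. The stem cells passed through embryoid bodies for 4 days and a selection medium, ITSFn, for 5 to 7 days, and the resulting neural precursors were expanded in FGF2 and EGF2. At 18 passages from the embryoid bodies, the growth factors were withdrawn and 5% FBS was added for 5 days to give astrocytes. Total RNA was labelled and hybridised to Affymetrix Mouse Genome 430 2.0 arrays, 1 array per sample. The labels do not say whether the replicates came from separate cultures. The spread behind each p-value is therefore only that between these 3 arrays, possibly for technical reasons, and 3 arrays give limited precision.

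Glycogen building begins when glycogenin attaches the first glucose units to itself. Glycogen synthase then lengthens the chains from UDP-glucose, and the branching enzyme adds side chains. Phosphorylase removes glucose units as glucose 1-phosphate when the cell draws on the store, and it is switched on by phosphorylase kinase, whereas protein phosphatase 1, brought to the particle by targeting subunits, favours synthesis.

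With a single group, the test the design allows is whether a gene's signal exceeded background. Background on each array was the 95th percentile of log2 signal over 78 chemosensory receptor genes, those for smell, pheromones, trace amines and taste. This limit lay at 3.99, 4.10 and 4.07 on replicates 1, 2 and 3, which are signals of 15.9, 17.1 and 16.8. A gene took the value of its brightest probe set, and passed when its log2 signal exceeded the limit at a Benjamini-Hochberg adjusted p below 0.05 (limma, one-sample, one-sided, all genes tested together). Probe sets differ in brightness, so the levels below are read against the limit and not against each other. The median signal was 20.02, 23.3 and 19.4 on the 3 arrays. Pearson correlations of log2 signal between arrays ran from 0.909 to 0.922 over all probe sets, and no pair of arrays shared an identical value. Replicate 3 stood apart in the array's control probe sets for the ends of the Actb and Gapdh transcripts, a common sign of RNA quality or of the length of the labelled material. The ratio of 3′ to 5′ signal for Actb was 1.12 and 1.17 on replicates 1 and 2 and 1.97 on replicate 3, and for Gapdh it was 0.769, 0.770 and 1.24.

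The astrocyte label held for its markers, since all 8 on the list were above background, where 58.3% of all genes tested passed. They ran from Aldh1l1, a folate enzyme, at 1.4 log2 units above the limit to Gfap, the astrocyte filament protein, at 8.58. Aldh1l1 passed on 1 of its 2 probe sets, Slc1a2 on 2 of 5 and Slc1a3 on 4 of 6, and the other astrocyte markers on all of theirs. Of the markers of other cells, 2 of 5 neuronal genes passed. Syt1 was at 3.19 log2 units above the limit, on 1 of its 4 probe sets, and Rbfox3 at 2.61, on 2 of 3. In the skeletal muscle and hepatocyte lists, 1 of 8 genes (Acta1, at 1.54) and 1 of 6 genes (Alb, at 0.91) passed. Of the microglia and blood genes, 0 of 4 passed. By limma, 0 of these 4 also had an unadjusted p below 0.05. Over the arrays the mean log2 signal of the list ranged from 3.78 to 4.33 for neuronal genes, from 2.57 to 3.25 for muscle, from 2.16 to 3.02 for hepatocyte and from 1.82 to 2.55 for microglia and blood genes, beside 10.11 to 10.50 for astrocyte markers.

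Of the 9 glycogen genes, 7 were above background and 2 were not, where 58.3% of the 18116 genes tested passed. The 7 were Gyg, Ugp2, Gys1, Gbe1, Pygb, Pygl and Ppp1r3c, and the 2 were Pygm and Epm2a. The median over the 9 genes was 3.55 log2 units above the limit, and over all genes tested it was 1.76. Counted by probe set, 14 of the 17 passed. The fit held the 34871 probe sets with 1 gene that are not of chemosensory receptor genes, of which 52.2% passed. The probe sets of any one glycogen gene all gave the same call. In the plot of every probe set, the Pygl points lie a little above the limit and the Epm2a reading of 16.3 on replicate 1 just above it. The Epm2a reading of 14.04 on replicate 2 and the Pygm reading of 11.9 on replicate 3 lie a little below it.

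**Figure D1:**
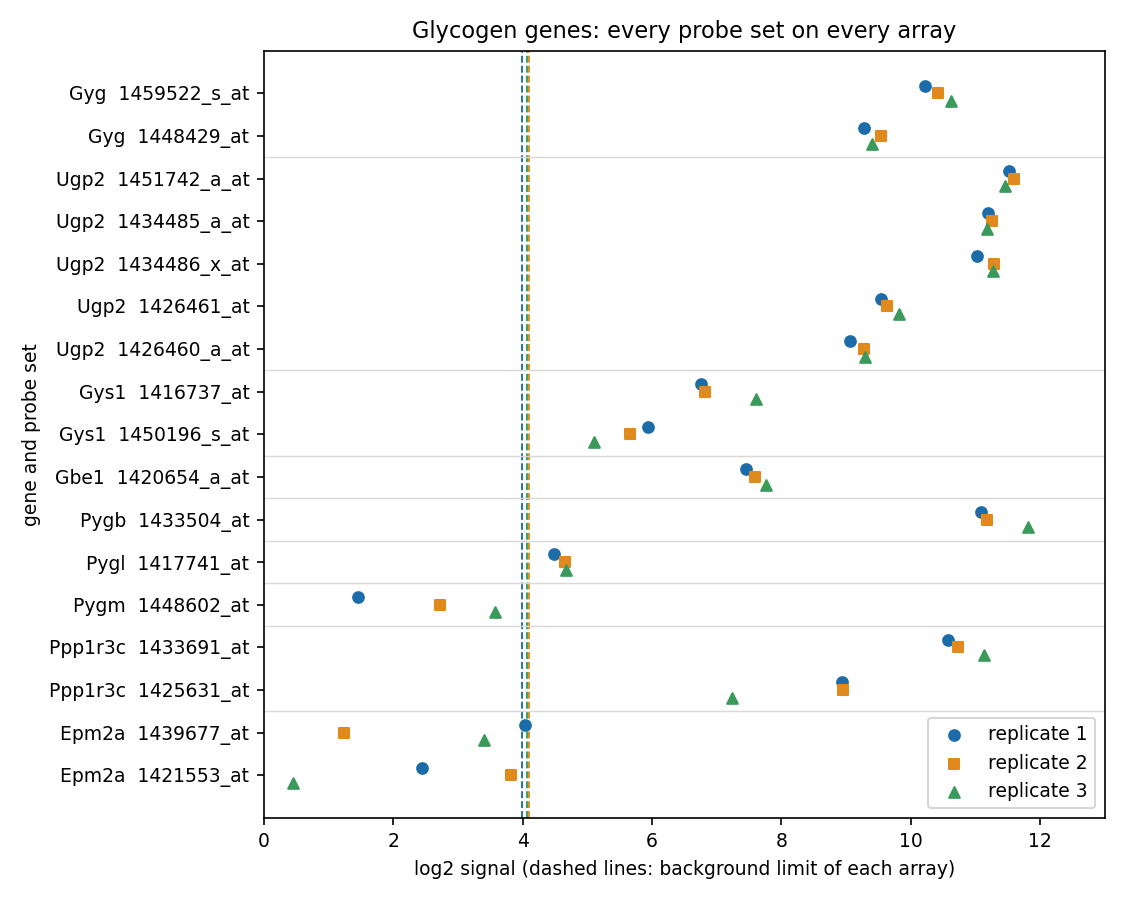
Log2 signal (horizontal axis) of each of the 17 probe sets of the 9 glycogen genes (vertical axis), with a point for each of the 3 arrays and a dashed line at each array's background limit. The Ugp2, Gyg and Pygb points lie far to the right of the limits, the Pygl points lie just beyond them, and the Pygm points and all but 1 of the Epm2a points lie below.

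The genes that start and feed the chain were far above the limit on every probe set. Gyg, which codes for glycogenin, had signals of 1198, 1366 and 1569.7 on replicates 1, 2 and 3 on its brighter probe set and of 619, 745 and 675 on the other. All 6 values were far above the limits. The brighter probe set had a mean log2 signal of 10.42 ± 0.19 (SD, n = 3), which is 6.37 log2 units above the limit (limma, adjusted p = 3.85e-05). This probe set is of the _s_at kind, which can bind several transcripts, and without such probe sets Gyg was 5.35 log2 units above the limit.

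Ugp2 codes for the pyrophosphorylase that makes UDP-glucose, the glucose donor for glycogen and also for other sugar chains. Its brightest probe set read 2946, 3098 and 2812, so the 3 arrays lay close together. The mean was 11.53 ± 0.07 (SD, n = 3), 7.47 log2 units above the limit (limma, adjusted p = 3.85e-05). The remaining 4 probe sets had means between 9.21 and 11.21 and all passed.

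Gys1 codes for the glycogen synthase of muscle, brain and most other tissues. Its brighter probe set read 108 and 113 on replicates 1 and 2 and 195 on replicate 3. The mean was 7.06 ± 0.47 (SD, n = 3), 3.01 log2 units above the limit (limma, adjusted p = 0.000429). The second, also of the _s_at kind, ran the other way, with 61.6 and 50.5 on replicates 1 and 2 and 34.2 on replicate 3. Both lay above the limit on every array. Gys2, the liver synthase, read 0.55, 7.93 and 5.59 and stayed below the limit on all 3 arrays, at a mean of 1.54 ± 2.09 (SD, n = 3).

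Gbe1, the branching enzyme, is represented by 1 probe set, which read 176, 192 and 217. These values are close together and well above the limits. The mean of 7.60 ± 0.15 (SD, n = 3) was 3.55 log2 units above the limit (limma, adjusted p = 6.21e-05). Thus each of the 4 genes that make up the building steps on the list passed the test, as did 58.3% of all genes tested.

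Mammals have 3 glycogen phosphorylase genes, named for brain, liver and muscle, and each is represented here by 1 probe set. Pygb, the brain form, read 2171, 2317 and 3594, with replicate 3 the highest. Its mean was 11.36 ± 0.40 (SD, n = 3), 7.31 log2 units above the limit (limma, adjusted p = 4.16e-05). Pygl, the liver form, read 22.3, 25.1 and 25.3, a little above the limit on each array. Its mean of 4.60 ± 0.10 (SD, n = 3) was 0.54 log2 units above the limit (limma, adjusted p = 0.0125). The Pygl call was lost without replicate 1 (adjusted p = 0.0527, limma) and without replicate 2 (adjusted p = 0.1, limma), and with the limit at the 99th percentile of the receptor genes (adjusted p = 0.392, limma). Pygm, the muscle form, whose protein has been reported in rodent astrocytes beside the brain form, read 2.74, 6.58 and 11.9. Every one of these values was below its array's limit, and the mean of 2.58 ± 1.06 (SD, n = 3) lay at -1.47 log2 units from it. Pygm is thus not above background on this probe set, which is not the same as absent. Of the 8 muscle markers, Acta1, an actin of skeletal muscle, passed at 1.54 log2 units above the limit, and the other 7 did not pass.

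The promoter windows of the phosphorylase genes are printed here because these genes fell on different sides of the limit. Each window holds 250 bases before and 50 bases after the transcription start, from RefSeq on the GRCm38.p6 build, written 5′ to 3′ on the gene's strand, and capitals mark CpG dinucleotides. Pygb is at chr2:150786546-150786845 on the + strand, Pygl at chr12:70227634-70227933 on the - strand, and Pygm at chr19:6384158-6384457 on the + strand.
Pygb: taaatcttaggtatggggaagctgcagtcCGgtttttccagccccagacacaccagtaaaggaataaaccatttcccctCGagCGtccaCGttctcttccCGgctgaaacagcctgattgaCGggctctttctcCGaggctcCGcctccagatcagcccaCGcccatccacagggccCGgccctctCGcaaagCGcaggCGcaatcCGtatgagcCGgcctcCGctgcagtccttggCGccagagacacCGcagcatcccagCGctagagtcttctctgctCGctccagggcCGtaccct
Pygl: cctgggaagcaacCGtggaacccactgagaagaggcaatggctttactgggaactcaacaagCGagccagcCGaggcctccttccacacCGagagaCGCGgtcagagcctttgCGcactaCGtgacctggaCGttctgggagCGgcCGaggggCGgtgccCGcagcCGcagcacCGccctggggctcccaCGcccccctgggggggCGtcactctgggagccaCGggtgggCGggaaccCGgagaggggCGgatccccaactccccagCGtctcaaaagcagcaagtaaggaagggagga
Pygm: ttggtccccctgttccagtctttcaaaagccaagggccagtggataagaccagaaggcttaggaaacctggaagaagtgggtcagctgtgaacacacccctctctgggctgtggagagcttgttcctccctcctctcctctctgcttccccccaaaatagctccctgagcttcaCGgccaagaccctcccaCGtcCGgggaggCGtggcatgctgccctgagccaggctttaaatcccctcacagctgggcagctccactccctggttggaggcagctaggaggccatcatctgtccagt
The Pygb and Pygl windows hold 21 and 22 CpG dinucleotides and the Pygm window holds 4, all in the bases before its start site. Set against the number expected from base composition, the ratios are 0.796 for Pygb, 0.655 for Pygl and 0.157 for Pygm.

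Ppp1r3c codes for PTG, a subunit that holds protein phosphatase 1 on the glycogen particle and favours synthesis. Its brighter probe set read 1527, 1708 and 2241, highest on replicate 3. The mean was 10.81 ± 0.28 (SD, n = 3), 6.76 log2 units above the limit (limma, adjusted p = 3.88e-05). The other probe set read 488 and 494 on replicates 1 and 2 and 151 on replicate 3. It passed as well, at a mean of 8.37 ± 0.98 (SD, n = 3).

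Epm2a codes for laforin, a phosphatase that removes phosphate from glycogen and whose loss causes Lafora disease. Its brighter probe set read 16.3, 2.35 and 10.5, above the limit of 15.9 on replicate 1 and below the limit on the others. The other read 5.45, 14.04 and 1.36, below the limit on all 3 arrays. At a mean of 2.89 ± 1.47 (SD, n = 3), -1.17 log2 units from the limit, Epm2a did not pass. Nhlrc1, which codes for malin, the ubiquitin ligase that partners laforin, read 15.1, 20.4 and 27.2 and also did not pass (adjusted p = 0.194, limma). Epm2aip1, named for the binding of its product to laforin, passed at 5.19 log2 units above the limit, on 3 of its 4 probe sets.

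Among the promoters of the 9 genes, the motif CACGTG, an E-box that reads the same on both strands, was found in those of Gyg and Ppp1r3c only. It occurs in 7.15% of 32851 windows of the same length. Capitals mark it in the windows of Gyg (chr3:20155067-20155366, - strand) and Ppp1r3c (chr19:36736555-36736854, - strand), from RefSeq on GRCm38.p6.
Gyg: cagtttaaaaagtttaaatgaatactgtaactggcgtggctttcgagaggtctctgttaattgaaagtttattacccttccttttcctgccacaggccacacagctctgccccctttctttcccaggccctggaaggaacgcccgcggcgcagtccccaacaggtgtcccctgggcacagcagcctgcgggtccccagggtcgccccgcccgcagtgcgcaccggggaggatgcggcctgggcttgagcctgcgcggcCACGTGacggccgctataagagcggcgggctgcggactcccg
Ppp1r3c: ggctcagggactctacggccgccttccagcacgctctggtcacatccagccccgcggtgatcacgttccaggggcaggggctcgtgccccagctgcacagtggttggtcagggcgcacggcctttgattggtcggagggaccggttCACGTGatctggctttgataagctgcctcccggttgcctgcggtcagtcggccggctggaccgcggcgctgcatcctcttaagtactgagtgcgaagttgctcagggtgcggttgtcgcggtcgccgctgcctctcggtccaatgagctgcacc
GGGCGG or its complement CCGCCC, the GC box, was found for Gys1 (3 matches), Gyg, Gbe1, Ugp2, Pygl (4 matches) and Epm2a, and occurs in 35.66% of all windows. CCAAT or its complement ATTGG was found for Gys1 (4 matches), Ppp1r3c (2 matches) and the upstream one of the 2 Ugp2 windows, and occurs in 37.41% of windows. TATAAA or its complement TTTATA was in none of these windows, and occurs in 13.62% of all. These matches are letters in a window and not binding sites.

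The CpG ratio of the members' windows ran from 0.157 for Pygm to 1.04 for Epm2a, so the 2 genes that did not pass stood at either end. The 8 windows of the 7 genes that passed lay between 0.553 and 0.813. For all genes with a window, 81.05% of the 8667 genes with a ratio of at least 0.6 were above background, and 28.57% of the 5722 genes with a lower one. Of the genes that passed, Gys1 has a ratio below 0.6 and the other 6 have one above it. Of the 2 that did not pass, Pygm has a ratio below 0.6 and Epm2a has one above it.

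**Figure D2:**
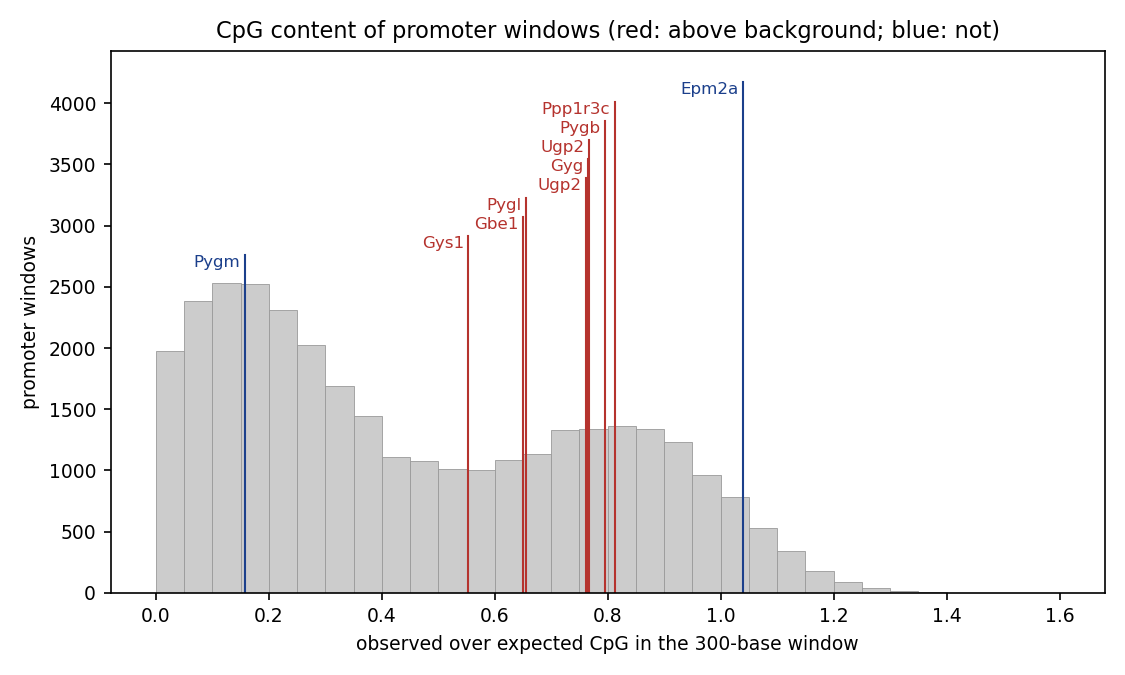
Number of promoter windows (vertical axis, grey bars, 32851 windows) by the ratio of observed to expected CpG dinucleotides (horizontal axis), with a line for each window of the 9 glycogen genes, red for genes above background and blue for genes that did not pass. Pygm at 0.157 and Epm2a at 1.04 are the outermost lines, and the red lines lie between 0.553 and 0.813.

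The other genes of the pathway were described from 9 lists with 53 genes, of which 47 had a probe set of their own and the rest were not analysed here. Of the 47, 32 were above background and 15 were not, at a median of 2.64 log2 units above the limit. That is 68.1%, against 58.3% of all genes.

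Of 8 genes that bring in or activate glucose or handle glucose 6-phosphate, 5 passed (62.5%), close to the 58.3% of all genes. Slc2a1, the glucose transporter GLUT1, read 1991, 2400.5 and 2800.2 and was 7.16 log2 units above the limit (limma, adjusted p = 3.85e-05). The hexokinase genes Hk1 and Hk2 were at 5.03 and 4.04 log2 units above it and Hk3 was at -0.0037. G6pc3, the widely expressed glucose 6-phosphatase, passed at 3.45 log2 units above the limit, and so did Slc37a4, which carries glucose 6-phosphate into the endoplasmic reticulum, at 3.05. The liver and islet phosphatase genes G6pc and G6pc2 were at -3.29 and -2.59. In the phosphoglucomutase family, named for the interconversion of glucose 1-phosphate and glucose 6-phosphate, 3 of 4 genes passed (75%, beside the same 58.3%). Whether each product carries out that step cannot be read from the signals. Pgm1 was at 4.51 log2 units above the limit on 1 of its 2 probe sets, Pgm2 at 4.10 and Pgm2l1 at 1.26, while Pgm5, a muscle protein of the same family, was at -3.30.

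All 5 measured genes for phosphorylase kinase, the enzyme complex that turns phosphorylase on, were above background, beside 58.3% of all genes. The regulatory subunit genes Phka1 and Phka2 were both at 2.64 log2 units above the limit, the second on 1 of 3 probe sets, and Phkb was at 5.40. The catalytic subunit genes Phkg1 and Phkg2 were at 3.20 and 4.23. Phka2 lay at -1.37 log2 units from the limit when the median of its probe sets was taken. Gaa, the lysosomal glucosidase that digests glycogen, read 268, 316 and 450 and passed at 4.34 log2 units above the limit (limma, adjusted p = 9.38e-05).

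The subunits that guide protein phosphatase 1 to glycogen divided. Beside Ppp1r3c, 2 of 6 passed (33.3%, where 58.3% of all genes did), Ppp1r3e at 2.32 and Ppp1r3f at 2.60 log2 units above the limit. Ppp1r3a, the muscle subunit, and Ppp1r3b, the liver subunit, were at -1.61 and -4.24, and Ppp1r3g was at -0.77. Ppp1r3d read 17.3, 24.5 and 27.4, above the limit on each array, and missed the threshold (adjusted p = 0.0594, limma). The catalytic subunits Ppp1ca, Ppp1cb and Ppp1cc all passed, between 7.17 and 7.69 log2 units above the limit.

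Genes for kinases that phosphorylate glycogen synthase or act on those kinases, regulatory subunits included, passed in 10 of 11 cases. That is 90.9%, where 58.3% of all genes passed. Gsk3a and Gsk3b, the glycogen synthase kinases, were at 4.19 and 5.41 log2 units above the limit. The AMP-activated kinase genes passed except Prkag3, a muscle subunit, which was at -2.58. The protein kinase A catalytic genes Prkaca and Prkacb were at 5.03 and 5.46, the second on 2 of 3 probe sets and at 1.65 with the median of its probe sets.

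Of 5 measured genes for receptors that can trigger glycogen breakdown, 2 passed (40%, where 58.3% of all genes did). Adcyap1r1, the receptor for the neuropeptide PACAP, read 825, 1017 and 1342 and was 5.97 log2 units above the limit (limma, adjusted p = 4.59e-05). All 3 of its probe sets passed, with adjusted p up to 0.0118 in the fit of probe sets (limma), and it was 2.11 log2 units above the limit with their median. Adra1b, an adrenergic receptor, read 41.9, 45.3 and 40.4 and was 1.36 log2 units above it. Vipr1 and Vipr2, receptors for vasoactive intestinal peptide, were at -1.90 and -0.76, and the serotonin receptor gene Htr2b was at -2.60. In bulk RNA, fewer cells with a transcript and less transcript per cell cannot be told apart.

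**Figure D3:**
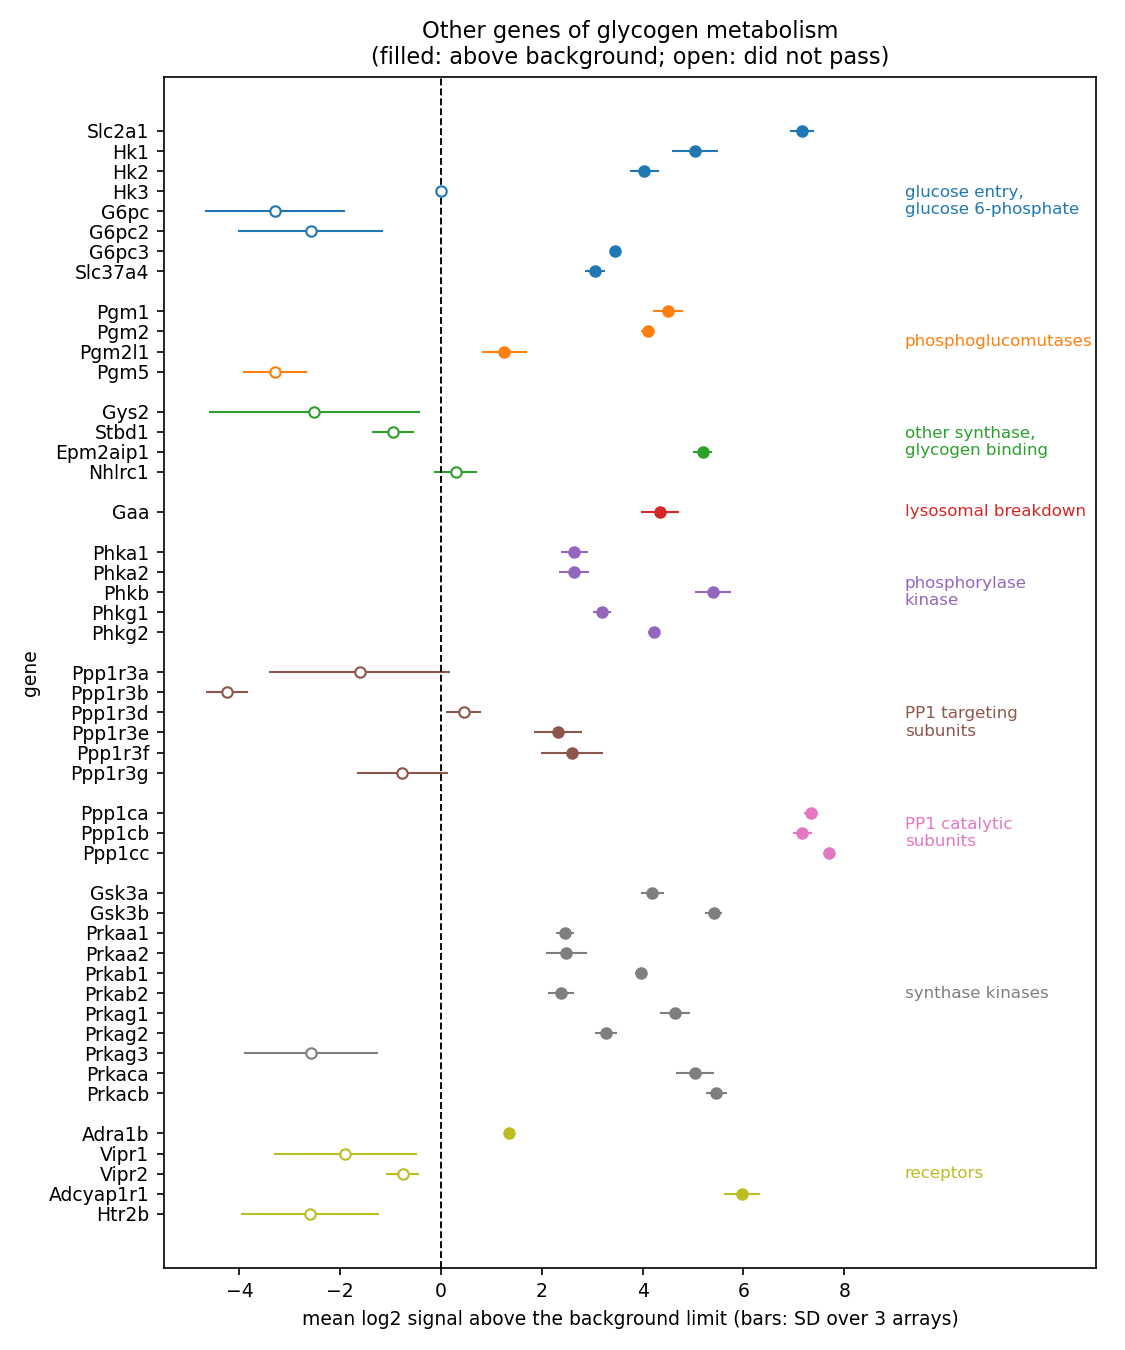
Mean log2 signal above the background limit (horizontal axis, bars are the SD over 3 arrays) for the 47 related genes (vertical axis), coloured by list, with filled points for genes above background and open points for those that did not pass. All 5 phosphorylase kinase genes and all 3 catalytic subunits of protein phosphatase 1 (PP1) are filled, and 4 of the 6 targeting subunits are open. Of all genes tested, 58.3% passed.

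The arrays can also be set against each other. Among genes above background, SD values over the 3 arrays were compared with those of 1057 genes of like signal. These SDs were taken on log2 signals with the shifts between arrays left in. Ugp2 and Gbe1 had small SDs, of 0.07 and 0.15 log2 units beside medians of 0.15 and 0.26. The median deviations of the arrays were -0.18, 0.02 and 0.16 log2 units on replicates 1, 2 and 3. The small SD of Ugp2 came from values that ran against these shifts, so it does not show a steadier gene. With each array's median deviation removed, Ugp2 deviated from its mean by 0.18, 0.05 and -0.23 log2 units on replicates 1, 2 and 3. Gbe1 deviated by 0.03, -0.03 and -0.003. With the shifts left in, Pygb and Gys1 varied more, with SDs of 0.40 and 0.47 beside medians of 0.15 and 0.26. Of genes of like signal, 3.41% and 11.35% had a larger SD.

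In both genes replicate 3 lay farthest from the mean. After removing each array's median deviation, Pygb deviated from its own mean by -0.09, -0.20 and 0.29 log2 units on replicates 1, 2 and 3. Probe sets of the same gene also differed on that array. Taken as replicate 3 minus the mean of the other replicates, with array medians removed, the Ppp1r3c probe sets were at 0.23 and -1.95 log2 units, a gap of 2.18. A gap at least as large was found in 2.96% of 4734 genes with several probe sets above background. The Gys1 probe sets were at 0.58 and -0.95, a gap of 1.52, reached by 11.2% of those genes. The gaps of Gyg and Ugp2 were 0.30 and 0.34, below the median gap of 0.60. Probe sets on either side of 0 were common, found for 3 of the 4 glycogen genes with several (Gys1, Gyg and Ppp1r3c) and for 57.2% of the 4734 genes. The 19 related genes with several had a median gap of 0.51, and the largest were 2.25 for Prkacb, 2.13 for Adcyap1r1 and 1.93 for Prkaa2, named after their values were seen and reached by 2.47%, 3.25% and 4.86% of genes.

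The Pygb, Gys1 and Ppp1r3c probe sets stood apart on replicate 3, some higher and some lower, and that array also had the highest control ratios. The part of RNA quality in these values was not tested. Without replicate 3, 7 of the 9 genes and 14 of the 17 probe sets were still above background, and the count of related genes was 32.

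**Figure D4:**
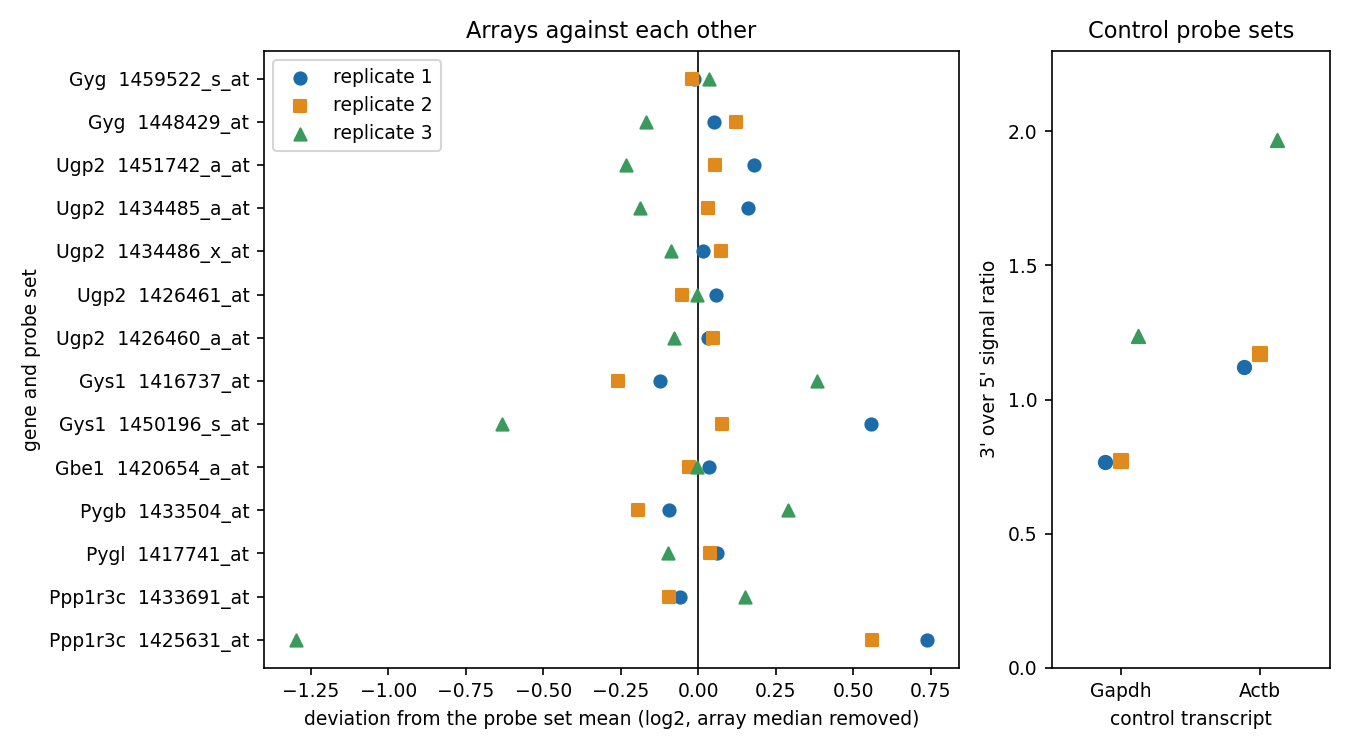
Left, deviation of each array from the mean of a probe set (horizontal axis, log2 units with the array's median deviation removed) for the 14 glycogen probe sets above background (vertical axis). Right, the ratio of 3′ to 5′ control signal (vertical axis) for Gapdh and Actb on the 3 arrays. On replicate 3 the probe sets of Ppp1r3c, Gys1 and Gyg lie on either side of 0, as in 57.2% of all genes with several, the Ppp1r3c points lie farthest apart, and both control ratios are highest.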

How the data were processed

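Gene expression was measured in 3 samples of 1 group on 1-colour arrays. The deposited table holds 1 linear intensity per probe set and array, made with GCOS 1.4, per the submitters' processing notes. Its settings and scaling were not given in the sources used here, and neither were detection calls. All 45101 rows were above 0. Of these, 34958 probe sets had 1 gene in the platform annotation, 932 had several and were left out, and 9211 are unnamed here. Entrez identifiers were matched to the GRCm38.p6 gene table, which changed 0 symbols. The deposited intensities were put on a log2 scale with no constant added, and tested with R 4.3.3 and limma 3.58.1. There are no depths, and saturation could not be examined.

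The 9 members and the gene lists were chosen with earlier results of these data known, so their counts are descriptions. All members were named, and related genes were taken by list. The comparison of replicate 3 with the others, the control ratios and the CpG ratio of 0.6 were chosen after seeing the data. The procedure was tested on simulated data. Alternatives were the probe set rule, the limit, the normalization, an added constant, a filter on dim genes, the variance estimate and leaving out each replicate.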

Additional observations from a re-analysis of the deposited data

Results flagged for a closer look

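Probe sets assigned to several genes were not used above, and those that name a gene of the pathway lists were looked at for signal above the limit on all 3 arrays. A probe set shared by Ppp1r3f and Ccdc22 lay 3.32 log2 units above the limit. Another, shared by Hk1 with Rpl17 and copies of Rpl17, lay 8.04 above it. The share of each gene in these signals cannot be read from the table. With 3 arrays in the group, no gene could be checked for an outlying sample by a rule that needs 4.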

How the results depend on the processing

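Under the 12 alternatives, 6 or 7 of the 9 glycogen genes and 31 to 33 of the related genes were above background, and the count over all genes ran from 9158 to 10900. Of the 17 probe sets, 13 or 14 passed under the alternatives that do not change the probe sets themselves. Leaving out a replicate gave 6 to 7 glycogen genes, 13 to 14 probe sets, 32 related genes and 10237 to 10460 genes in all. Of the glycogen genes, 8 kept their call under all 12 alternatives. Pygl kept it under 8, and its adjusted p (limma) ran from 0.00431 to 0.392, with 0.0551 when the variance followed the mean. Phka2 moved to -1.365 log2 units with the median of its probe sets, because 2 of the 3 lie below the limit. Ppp1r3d passed with the limit at the 90th percentile (adjusted p = 0.0179, limma) and without dim genes (adjusted p = 0.0421, limma), and its adjusted p ran up to 0.595. Scaling to a common trimmed mean changes nothing by construction, since each array has its own limit. No paired analysis was possible because there is 1 group. Signals near the limit, such as Pygl, are the least certain.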
